A study of Mus musculus with 38 samples.

Results

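The libraries described here were the 3 H3K27me3 and the 3 H3K9me3 chromatin immunoprecipitation sequencing (ChIP-seq) libraries of wild-type (WT) mouse embryonic stem (ES) cells, 6 of the 38 samples of the series. They were chosen by their titles, which name the mark and WT replicates 1 to 3, and their called regions were read on chromosomes 1 to 19. The series compares histone marks in cells with and without IκBα, and the cells lacking IκBα were not used here. The WT cells were of the ES-E14TG2a line, carried the genotype IkappBalpha+/+, were grown on gelatin with serum and leukaemia inhibitory factor, and were collected at 0 h with no differentiation. According to the study's methods, WT cells were clones that had received a scrambled guide RNA, and each replicate was an independent clone. A WT library is therefore taken to describe 1 clone of 1 cell line. The p-values below set the difference between the 2 marks against the spread between the 3 libraries of a mark. Whether the same clones served both marks is not given. The labels give each mark its own antibody and its own WT input, so the mark, the antibody and the experiment cannot be told apart in any comparison of the 2 marks.

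H3K27me3, trimethylation of lysine 27 of histone H3, is written by Polycomb repressive complex 2 and is known in ES cells for covering CpG-rich promoters of developmental regulators, many of which also carry the activating mark H3K4me3. H3K9me3, trimethylation of lysine 9, is written mainly by SETDB1 and the SUV39H enzymes and marks constitutive heterochromatin, retrotransposons and arrays of zinc-finger genes, where KRAB zinc-finger proteins and their cofactor TRIM28 guide SETDB1 to sequence. Both marks accompany silent chromatin, and they are usually described as occupying separate compartments of the genome.

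Each deposited list held the regions that epic2 had called in 1 library against its input at a false discovery rate (FDR) under 0.05, in steps of 200 bp. The 6 lists held between 40348 and 47464 regions, with 8860024 to 9905320 ChIP reads in called regions for H3K27me3 and 9556827 to 11248081 for H3K9me3. Divided by the sequence called, this was 41.6, 38.4 and 38.6 ChIP reads per kb in the H3K27me3 libraries WT1, WT2 and WT3, and 59.2, 50.7 and 51.0 per kb in the H3K9me3 libraries (exact permutation test, two-sided, p = 0.1, the smallest that 3 against 3 libraries can give). No such test could pass 0.05, and reads were counted without molecular identifiers. H3K27me3 WT1 stood apart from its replicates with less covered sequence and more small regions, so values without it are given where it changed a result. Of 12 marker genes of ES cells, 7 had an H3K4me3 promoter, 11 an H3K27ac promoter, 3 (Esrrb, Klf4 and Fgf4) an H3K27me3 promoter and 0 an H3K9me3 promoter. Over all protein-coding promoters the shares were 56.6%, 63.5%, 39.5% and 12.5% in that order. The promoters of 5 of 5 neural, 4 of 4 mesendoderm and 6 of 6 trophectoderm markers carried H3K27me3. So did those of 5 of 6 primitive endoderm, 5 of 6 fibroblast (feeder cell) and 1 of 4 blood markers. H3K27ac was not particular to ES cell markers. It was called at 5 of 5, 3 of 4, 5 of 6, 3 of 6, 2 of 6 and 2 of 4 of these other promoters, in the same order.

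The sequence under the marks is shown first for 2 genes of each kind, as examples. They were picked so that all the bases printed lay under the mark. Hoxc4, Prl2c3 and Scgb2b21 came from the genes with the longest stretches, and Hoxa10 from the most covered genes of its family. For the genes below, the RefSeq promoter (GRCm38.p6) gave the 250 bases before the start, read 5′ to 3′ on the gene's strand, with every CpG in capitals. A RefSeq start can differ from the GENCODE start used for stretches and promoter counts. The GENCODE Hoxc4 gene starts at chr15:103018934, so the Hoxc4 stretch printed here lies inside it. Hoxc4 (chr15:103034145-103034394, plus strand) and Hoxa10 (chr6:52240855-52241104, minus strand) encode transcription factors that pattern the body axis, and all 250 bases of each lay under H3K27me3.
Hoxc4: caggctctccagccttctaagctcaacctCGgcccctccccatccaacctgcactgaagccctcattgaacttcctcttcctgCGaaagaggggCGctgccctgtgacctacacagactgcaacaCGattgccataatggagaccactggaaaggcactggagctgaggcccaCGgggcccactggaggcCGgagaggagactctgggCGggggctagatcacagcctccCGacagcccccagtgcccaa
Hoxa10: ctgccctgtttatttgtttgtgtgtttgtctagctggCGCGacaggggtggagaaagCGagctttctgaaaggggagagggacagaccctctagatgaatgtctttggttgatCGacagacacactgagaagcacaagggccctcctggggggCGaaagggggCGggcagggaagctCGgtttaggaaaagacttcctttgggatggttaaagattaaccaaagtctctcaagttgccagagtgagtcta
Prl2c3 (chr13:12800080-12800329, minus strand), a gene of the prolactin family, and Scgb2b21 (chr7:33520456-33520705, minus strand), a secretoglobin gene, lay wholly under H3K9me3.
Prl2c3: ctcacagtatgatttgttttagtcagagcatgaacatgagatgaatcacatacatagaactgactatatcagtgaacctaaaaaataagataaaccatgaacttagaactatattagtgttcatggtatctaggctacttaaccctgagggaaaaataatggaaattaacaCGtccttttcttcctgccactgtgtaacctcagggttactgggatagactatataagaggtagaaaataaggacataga
Scgb2b21: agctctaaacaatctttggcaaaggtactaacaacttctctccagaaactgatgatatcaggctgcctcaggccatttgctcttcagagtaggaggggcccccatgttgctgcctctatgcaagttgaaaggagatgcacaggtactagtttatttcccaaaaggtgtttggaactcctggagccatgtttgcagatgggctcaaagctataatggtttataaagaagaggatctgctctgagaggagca
The Hoxc4 and Hoxa10 stretches held 8 and 7 CpG at a GC content of 62.0% and 51.6%, and the Prl2c3 and Scgb2b21 stretches held 1 and 0 CpG at 35.2% and 45.6%. These are not typical values. In the 250 bases before the GENCODE start, promoters with H3K27me3 alone had a median of 10 CpG (quartiles 4 and 19). Those with H3K9me3 alone had a median of 3 (quartiles 1 and 13).

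H3K27me3 covered more of the genome than H3K9me3 from about as many regions. The H3K27me3 lists held 45906, 44705 and 40869 regions and the H3K9me3 lists 47464, 40348 and 44278, which overlapped (exact permutation test, p = 1). Covered sequence was 212.8, 257.1 and 256.9 Mb for H3K27me3 (242.3 ± 25.5 Mb, SD, n = 3) and 190.2, 193.4 and 187.4 Mb for H3K9me3 (190.3 ± 3.03 Mb). The libraries of the 2 marks did not overlap (exact permutation test, p = 0.1), and without H3K27me3 WT1 the difference rose from 51.9 to 66.7 Mb. In shares of chromosomes 1 to 19, H3K27me3 covered 8.88%, 10.7% and 10.7%, and H3K9me3 8.07% at most.

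Chromosome 11 held the largest share of H3K27me3 and one of the smaller shares of H3K9me3. It was covered to 14.7%, 17.7% and 17.4% by H3K27me3 and to 6.45%, 6.68% and 6.26% by H3K9me3, a ratio of 2.57. Chromosome 2 was covered to 9.98%, 11.9% and 12.01% against 6.17%, 6.25% and 6.06%, and chromosome 19 to 10.7%, 12.8% and 12.8% against 6.84%, 6.99% and 6.83%. Chromosome 3 had the opposite order, with 5.48%, 6.78% and 6.80% under H3K27me3 and 8.56%, 8.67% and 8.41% under H3K9me3. H3K27me3 was higher without overlap on 9 of the 19 chromosomes (47.4%) and H3K9me3 on 3 (15.8%), namely 3, 10 and 13, and none of these passed an adjusted p of 0.05 (exact permutation tests, Benjamini-Hochberg adjusted p = 0.158). Without H3K27me3 WT1 the first count was 15. When each chromosome's coverage was divided by that of its whole library, the 2 marks did not overlap on any chromosome, with H3K27me3 higher on 9 (47.4%) and H3K9me3 on 10 (52.6%). The division sets each library's average to 1, so neither mark can be higher on every chromosome. Leaving out a library cannot make groups without overlap overlap, so it does not test these counts.

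**Figure D1:**
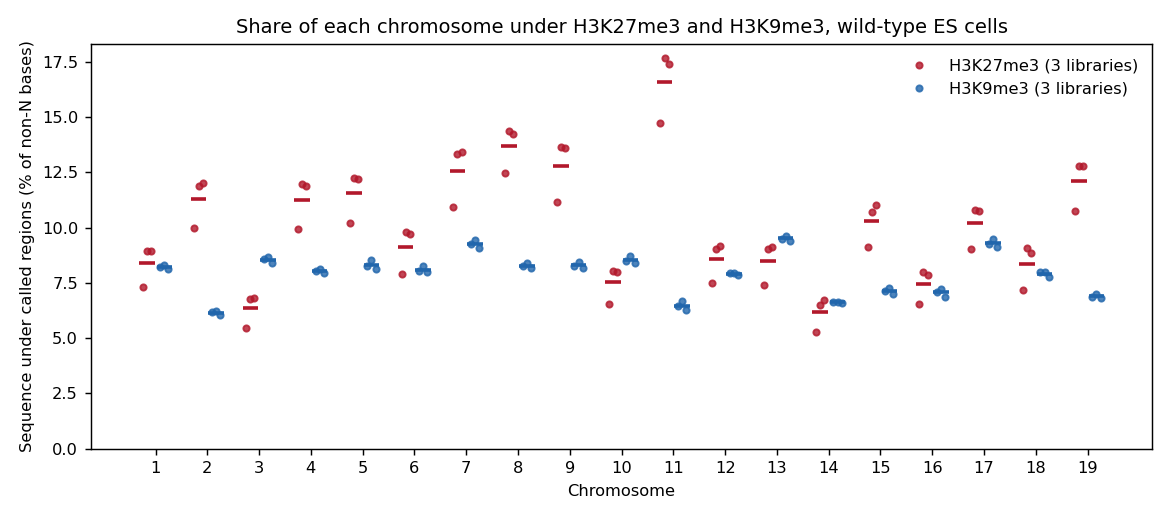
Share of the non-N bases of each of chromosomes 1 to 19 under called regions (y axis, %), with 1 point per library and a bar at the mean of 3, H3K27me3 in red and H3K9me3 in blue. Chromosome 11 shows the widest gap, with 14.7% to 17.7% under H3K27me3 and 6.26% to 6.68% under H3K9me3, and chromosome 3 the reverse order.

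H3K27me3 sequence lay in wider regions. Regions of at least 20 kb numbered 732, 1085 and 1173 for H3K27me3 and 440, 530 and 443 for H3K9me3, and held 10.2%, 12.7% and 13.9% of the covered sequence against 6.73%, 7.97% and 6.95% (exact permutation test, p = 0.1, no overlap). Median widths were 3400, 4200 and 4600 bp against 3000, 3600 and 3200 bp and overlapped (p = 0.2, exact permutation test). Regions under 1 kb made up 0.579% of the regions of H3K27me3 WT1, 0.125% of WT2 and 0.0759% of WT3, and 5.88%, 4.13% and 5.00% of those of H3K9me3. Enrichment over input was higher per region for H3K9me3, with a median deposited log2 fold of 1.50, 1.50 and 1.59 against 0.740, 0.782 and 0.732.

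From 2 kb upward, CpG density rose with width under H3K27me3 and changed little under H3K9me3. Below that width it was highest in regions under 1 kb, with 22.7 CpG per kb under H3K27me3 and 16.1 under H3K9me3. H3K27me3 regions of 2 to 5 kb held 12.2 ± 0.22 CpG per kb (mean ± SD of 3 libraries) with a median log2 fold over input of 0.69, and those of 50 kb or more held 17.6 CpG per kb with a median log2 fold of 2.02. H3K9me3 regions held 9.11 CpG per kb at 2 to 5 kb and 8.58 at 50 kb or more. The smallest H3K9me3 regions, under 1 kb, were 69.9% soft-masked, which means annotated in the genome as interspersed or simple repeat, and had a median log2 fold of 2.44.

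**Figure D2:**
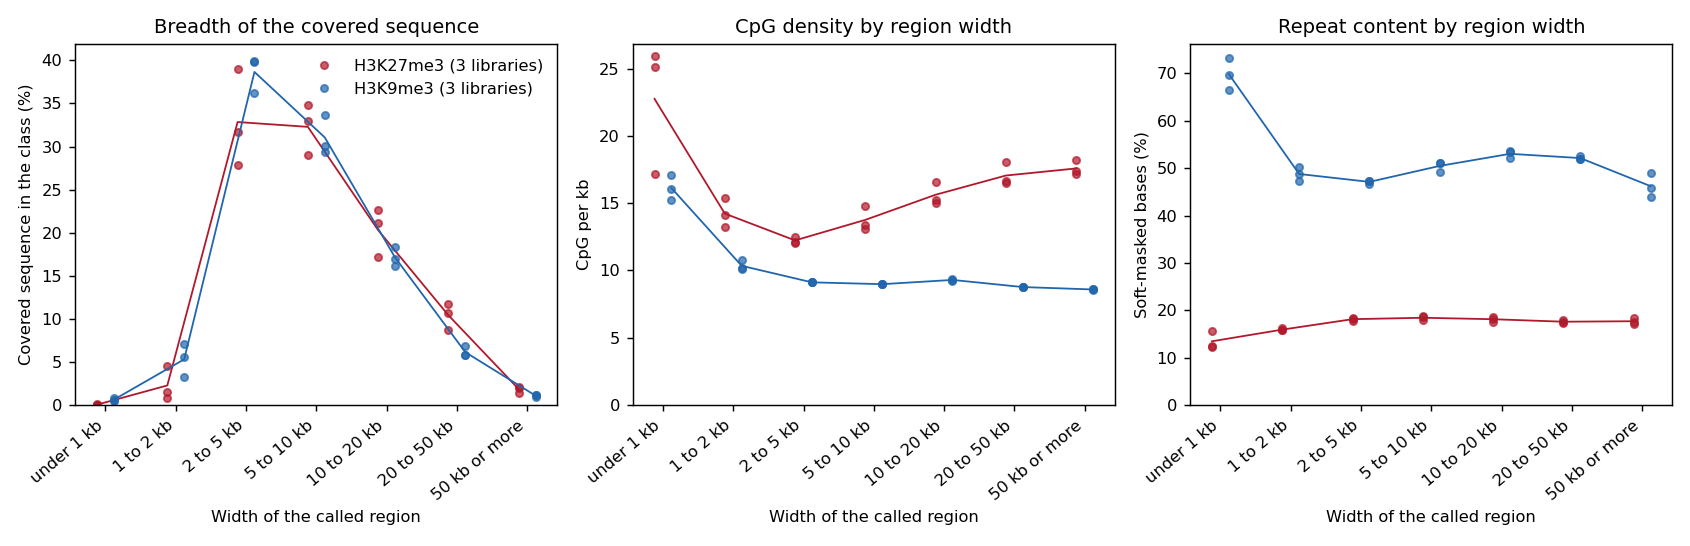
Share of covered sequence (%), CpG per kb and soft-masked bases (%) by the width of the called region, with 1 point per library and a line through the means of the 3 H3K27me3 (red) and 3 H3K9me3 (blue) libraries. From 2 kb upward CpG density rose with width under H3K27me3, from 12.2 to 17.6 per kb, and stayed near 9 per kb under H3K9me3, while the masked share was near 18% under H3K27me3 and near 50% under H3K9me3. The part of read filtering in the masked shares was not tested.

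The longest stretches carried different genes. The longest H3K27me3 stretch over a gene's start, with that start called in all 3 libraries, ran for 179.6 kb (chr15:102893201-103072800) across the Hoxc cluster and held the 5′ ends of the Hoxc genes from Hoxc4 to Hoxc13. The longest H3K9me3 stretch of the same kind ran for 149.2 kb over the start of Prl2c3 (chr13:12793601-12942800). It was followed by 89.0 kb at Scgb2b21 (chr7:33514801-33603800) and 76.4 kb at Zfp982 (chr4:147436601-147513000). A stretch of 75.6 kb (chr1:88211601-88287200) held the starts of Hjurp, which encodes the chaperone that loads the centromeric histone CENP-A, of Mroh2a and of Trpm8, the cold-sensing ion channel. Zfp981 and Zfp992 shared 69.4 kb on chromosome 4 (chr4:146433801-146503200). Prl2c3, Scgb2b21 and the Zfp genes belong to families with near-identical copies, and the handling of reads that map to several places is not given for H3K9me3 in the sources used here, so their values are uncertain.

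The 2 marks also differed in where they lay relative to genes and in base composition, with no overlap between the libraries of each in any of the measures in this paragraph (exact permutation tests, p = 0.1 each). Promoters, taken as 5000 bp before to 100 bp after the 5′ end, made up 11.4%, 10.5% and 10.7% of H3K27me3 sequence and 3.24%, 3.31% and 3.20% of H3K9me3 sequence, beside 4.12% of the autosomes. Intergenic sequence made up 43.1%, 44.6% and 44.5% against 72.1%, 71.6% and 72.8%. GC content was 48.1%, 47.7% and 47.6% against 42.6%, 42.5% and 42.5%, beside 41.9% of the autosomes. CpG density was 14.5, 13.8 and 13.8 per kb against 9.21, 9.14 and 9.18. Soft-masked bases made up 17.6%, 18.3% and 18.5% of H3K27me3 sequence and 49.8%, 49.2% and 50.0% of H3K9me3 sequence, beside 33.5% of the autosomes. Multiply mapping reads and blacklisted sequence were removed for H3K27me3, and their handling is not given for H3K9me3. The part of this in the masked shares, here and by region width, was not tested.

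More promoters carried H3K27me3 than H3K9me3 in every library. Among 20807 protein-coding genes, 8110, 8481 and 8427 promoters overlapped an H3K27me3 region in WT1, WT2 and WT3, and 2818, 2695 and 2720 an H3K9me3 region, a ratio of 3.04 (exact permutation test, p = 0.1, no overlap). With the bases covered in at least 2 of 3 libraries of a mark, called the consensus, 8218 promoters (39.5%) carried H3K27me3 and 2609 (12.5%) H3K9me3. Of these, 7516 (36.1%) had H3K27me3 alone, 1907 (9.17%) H3K9me3 alone and 702 (3.37%) both, and 10682 (51.3%) had neither. The counts for H3K9me3 depended on the window: with 1000 bp on either side of the 5′ end, 977 promoters had H3K9me3 alone and 298 both, and with at least 50% of the window covered, 944 and 79. By the stricter rule of all 3 libraries of one mark and 0 of the other, 6307 promoters (30.3%) belonged to H3K27me3 and 1431 (6.88%) to H3K9me3.

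Gene classes differed in which mark held more of their promoters. Across all 51229 annotated genes the shares were 28.4% with H3K27me3 and 15.7% with H3K9me3. Long non-coding RNA genes (33.8% and 13.3%) and microRNA genes (23.8% and 16.8%) had more promoters under H3K27me3. Processed pseudogenes, copies of messenger RNAs that were inserted back into the genome, had more under H3K9me3 (14.0% and 22.1%), as did unprocessed pseudogenes (4.83% and 33.7%) and immunoglobulin and T-cell receptor V segments (1.66% and 15.2%). The direction in each of these classes was the same under all 11 alternatives run, none of which changed how reads were mapped. Multiply mapping reads were removed for H3K27me3, and their handling is not given for H3K9me3. Their part in the values of pseudogenes and V segments was not tested.

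The 250 bases before the 5′ end held a median of 10 CpG at promoters with H3K27me3 alone, 3 with H3K9me3 alone, 10 with both and 8 with neither, counted in the genome for the 20802 protein-coding genes with a complete stretch of sequence. No CpG at all was found in 2.69% of the first set and in 15.8% of the second, beside 7.38% of all promoters.

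The promoter groups also differed in the active marks called in WT cells, for which 3 libraries of each mark gave a consensus. H3K4me3, found at promoters that are active or poised, was present at 65.4% of promoters with H3K27me3 alone, 34.9% with H3K9me3 alone, 57.0% with both and 54.2% with neither. H3K4me1, typical of enhancers and of the flanks of promoters, was present at 90.4%, 45.0%, 85.3% and 65.3% in the same order. H3K27ac, found at active promoters and enhancers, was present at 67.6%, 47.2%, 59.4% and 63.7%. None of the 3 active marks was called at 8.71% of promoters with H3K27me3 alone and at 50.4% of those with H3K9me3 alone, beside 24.9% of all promoters. These shares count any call within a window of 5100 bp, so 2 marks at 1 promoter need not lie on the same nucleosome or in the same cell.

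**Figure D3:**
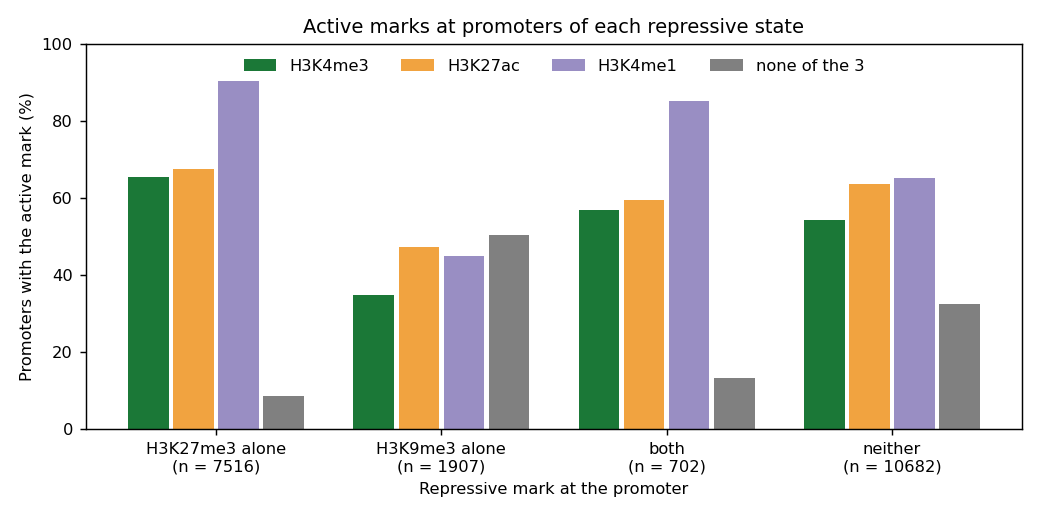
Share of promoters (y axis, %) with a consensus call of H3K4me3, H3K27ac or H3K4me1, or with none of the 3, for protein-coding promoters under H3K27me3 alone, H3K9me3 alone, both or neither. H3K4me3 was at 65.4% of promoters under H3K27me3 alone and 34.9% of those under H3K9me3 alone, and the share with no active mark was 8.71% and 50.4%.

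Most promoters of transcription factor families that direct development carried H3K27me3. All 39 Hox promoters carried it and 3 carried H3K9me3, read against 39.5% and 12.5% of all protein-coding promoters. Among 115 homeobox genes outside the Hox clusters the counts were 113 and 6, among 44 tissue-specific bHLH genes 41 and 1, among 41 forkhead genes 34 and 3, among 18 Sox genes 14 and 2, and among 15 T-box genes 14 and 2. All 9 Pax genes and all 5 Gata genes carried H3K27me3, with 1 and 0 under H3K9me3. H3K27me3 covered the promoter and the whole gene body in each library at the homeobox genes Barhl2 and Barx1, at Sox1 and Sox10, which act in the neural plate and the neural crest, at T (brachyury), which drives mesoderm, at Tbx1 and at Gata2. Nkx3-2 carried both marks in its promoter, with 44.9%, 34.9% and 39.9% of promoter plus gene body under H3K9me3, and Nkx2-1 likewise with 35.5 ± 4.18% (SD, n = 3).

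Signalling ligands and genes of differentiated cells also had more promoters under H3K27me3 than under H3K9me3. All 19 Wnt ligands carried H3K27me3 and 1 (Wnt4) H3K9me3. Fibroblast growth factors (15 and 1 of 20) and BMP and GDF ligands (13 and 1 of 19) had the same order. Potassium channel genes had 68 of 79 promoters under H3K27me3 and 9 under H3K9me3, ionotropic glutamate receptors 16 and 1 of 17, GABA-A receptor subunits 12 and 0 of 16, and keratins 40 and 2 of 49. Fgf6, Wnt1, Wnt10a, Kcna1, Kcna3, Krt1 and Krt18 were covered by H3K27me3 over promoter and gene body in full in each library. Foxn2 was the forkhead gene with most H3K9me3, 42.0 ± 6.65% of promoter plus gene body, and it had H3K9me3 alone. Clustered protocadherins, adhesion proteins that give neurons their identity, had 54 of 57 promoters under H3K27me3 and 15 under H3K9me3, with 13 under both.

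Chemosensory receptors and genes of the early embryo had the reverse order at promoters. Olfactory receptors had 228 of 1087 promoters under H3K9me3 and 60 under H3K27me3, and vomeronasal receptors, which detect pheromones, 104 and 2 of 326. Over all protein-coding promoters the shares were 12.5% under H3K9me3 and 39.5% under H3K27me3. At the 5′ end itself 4.14% of olfactory receptors lay under each mark. At 1 kb downstream 2.67% lay under H3K9me3 and 4.14% under H3K27me3. Vomeronasal receptors kept the order at the 5′ end, with 7.06% and 0.613%. For olfactory receptors the promoter difference (H3K27me3 minus H3K9me3, -15.5 points) ran from -17.0 to -3.13 points under the alternatives. Olfr401 and Olfr504 were covered by H3K9me3 over 98.1 ± 3.25% and 97.8 ± 3.81% of promoter plus gene body, and Vmn1r175 over 92.7%, 90.3% and 97.4%. Olfr524 went the other way, with 93.8 ± 6.43% under H3K27me3. Multicopy genes expressed at the 2-cell stage had 13 of 34 promoters under H3K9me3 and 1 under H3K27me3, and Tdpoz3 was wholly under H3K9me3 in each library. These families hold near-identical copies, and the part of multiply mapping reads in their values was not tested. Taste receptors (4 and 4 of 38) and replication-dependent histone genes (4 and 4 of 67) had equal counts.

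**Figure D4:**
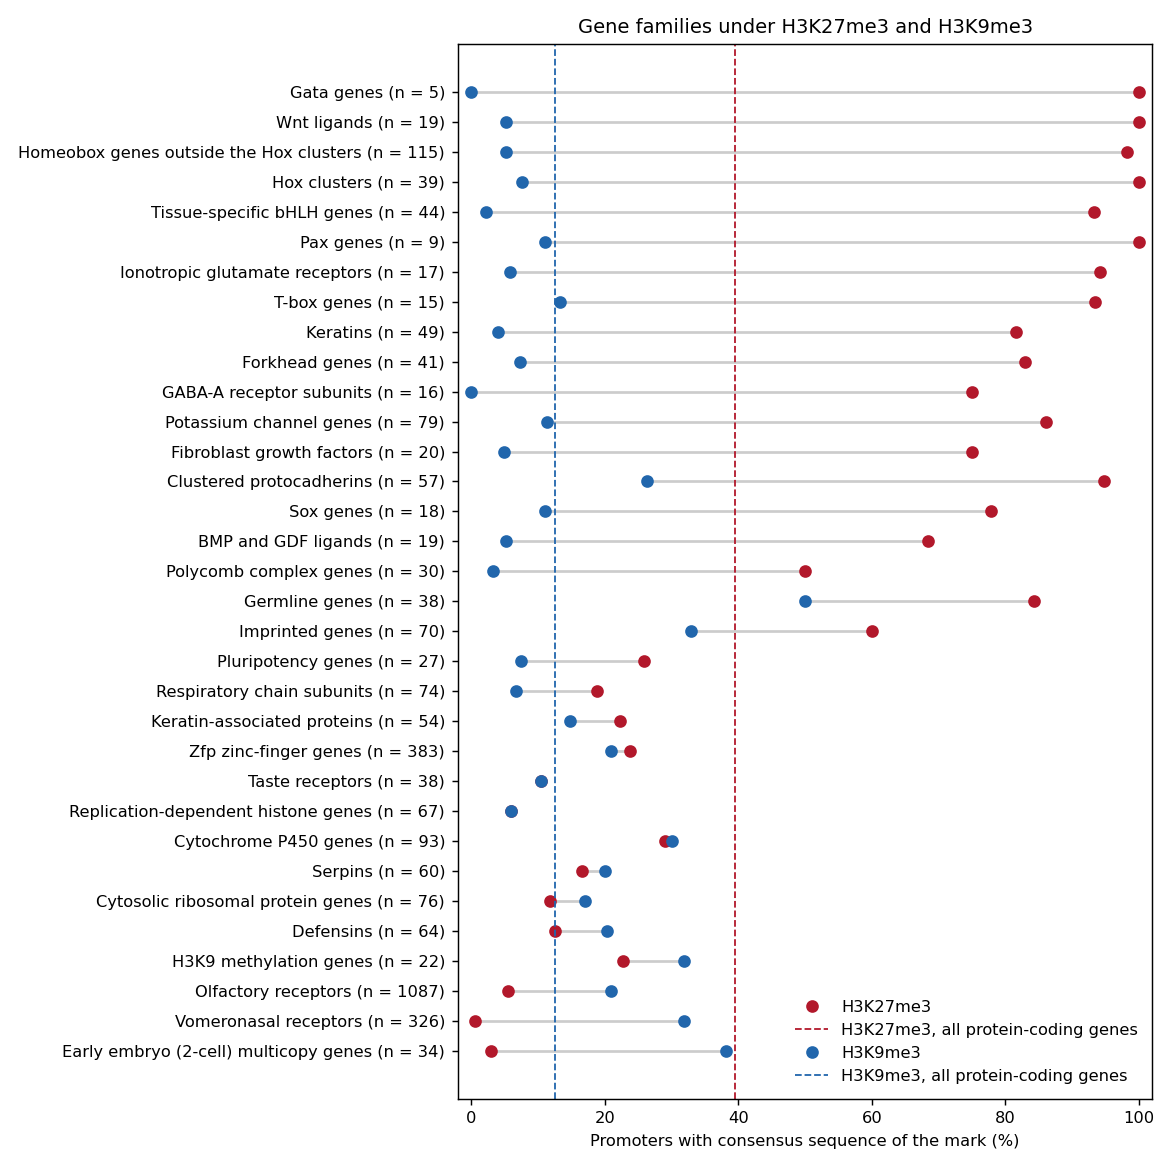
Share of promoters of each gene family (x axis, %) with consensus H3K27me3 (red) and H3K9me3 (blue), with the family's number of genes in brackets and dashed lines at the 39.5% and 12.5% of all protein-coding promoters. Families of developmental regulators sit at the right for H3K27me3, and olfactory and vomeronasal receptors and 2-cell genes at the bottom have H3K9me3 to the right of H3K27me3. Under alternative settings the order flips for Zfp genes, defensins, serpins, cytochrome P450 genes, ribosomal protein genes and H3K9 methylation genes.

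In all, 23 of 33 families had more promoters under H3K27me3 and 8 more under H3K9me3. More H3K27me3 was also the order over all protein-coding promoters, at 39.5% and 12.5%. Some of the 23 lay below both of these shares, such as respiratory chain subunits (18.9% and 6.76%) and pluripotency genes (25.9% and 7.41%). The order was the same in all 11 alternatives for each transcription factor, ligand, channel, keratin and protocadherin family named above and for olfactory and vomeronasal receptors. It turned in at least 1 alternative for Zfp genes, defensins (8 and 13 of 64), serpins (10 and 12 of 60), cytochrome P450 genes (27 and 28 of 93), ribosomal protein genes and genes of H3K9 methylation (5 and 7 of 22), so no direction is given for these. Among the cytochrome P450 genes, Cyp26a1, which degrades retinoic acid, was covered in full by H3K27me3 in each library, and Cyp2d12 by H3K9me3 over 88.2 ± 12.3% of promoter plus gene body.

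Around the 5′ ends of all protein-coding genes the marks had opposite profiles. H3K27me3 covered 15.4% of genes at 50 kb upstream, 29.1% at the start and 32.5% at 1 kb downstream, while H3K9me3 covered 8.3% at 50 kb upstream and 3.3% at the start. At homeobox genes outside the Hox clusters H3K27me3 reached 98.3% at 1 kb downstream. At olfactory receptors H3K9me3 covered 15.6% at 10 kb upstream and 2.7% at 1 kb downstream, and at vomeronasal receptors 26.4% at 10 kb upstream and 4.9% at 2 kb downstream. In both receptor families the share was lower just inside the gene than 10 kb before it.

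**Figure D5:**
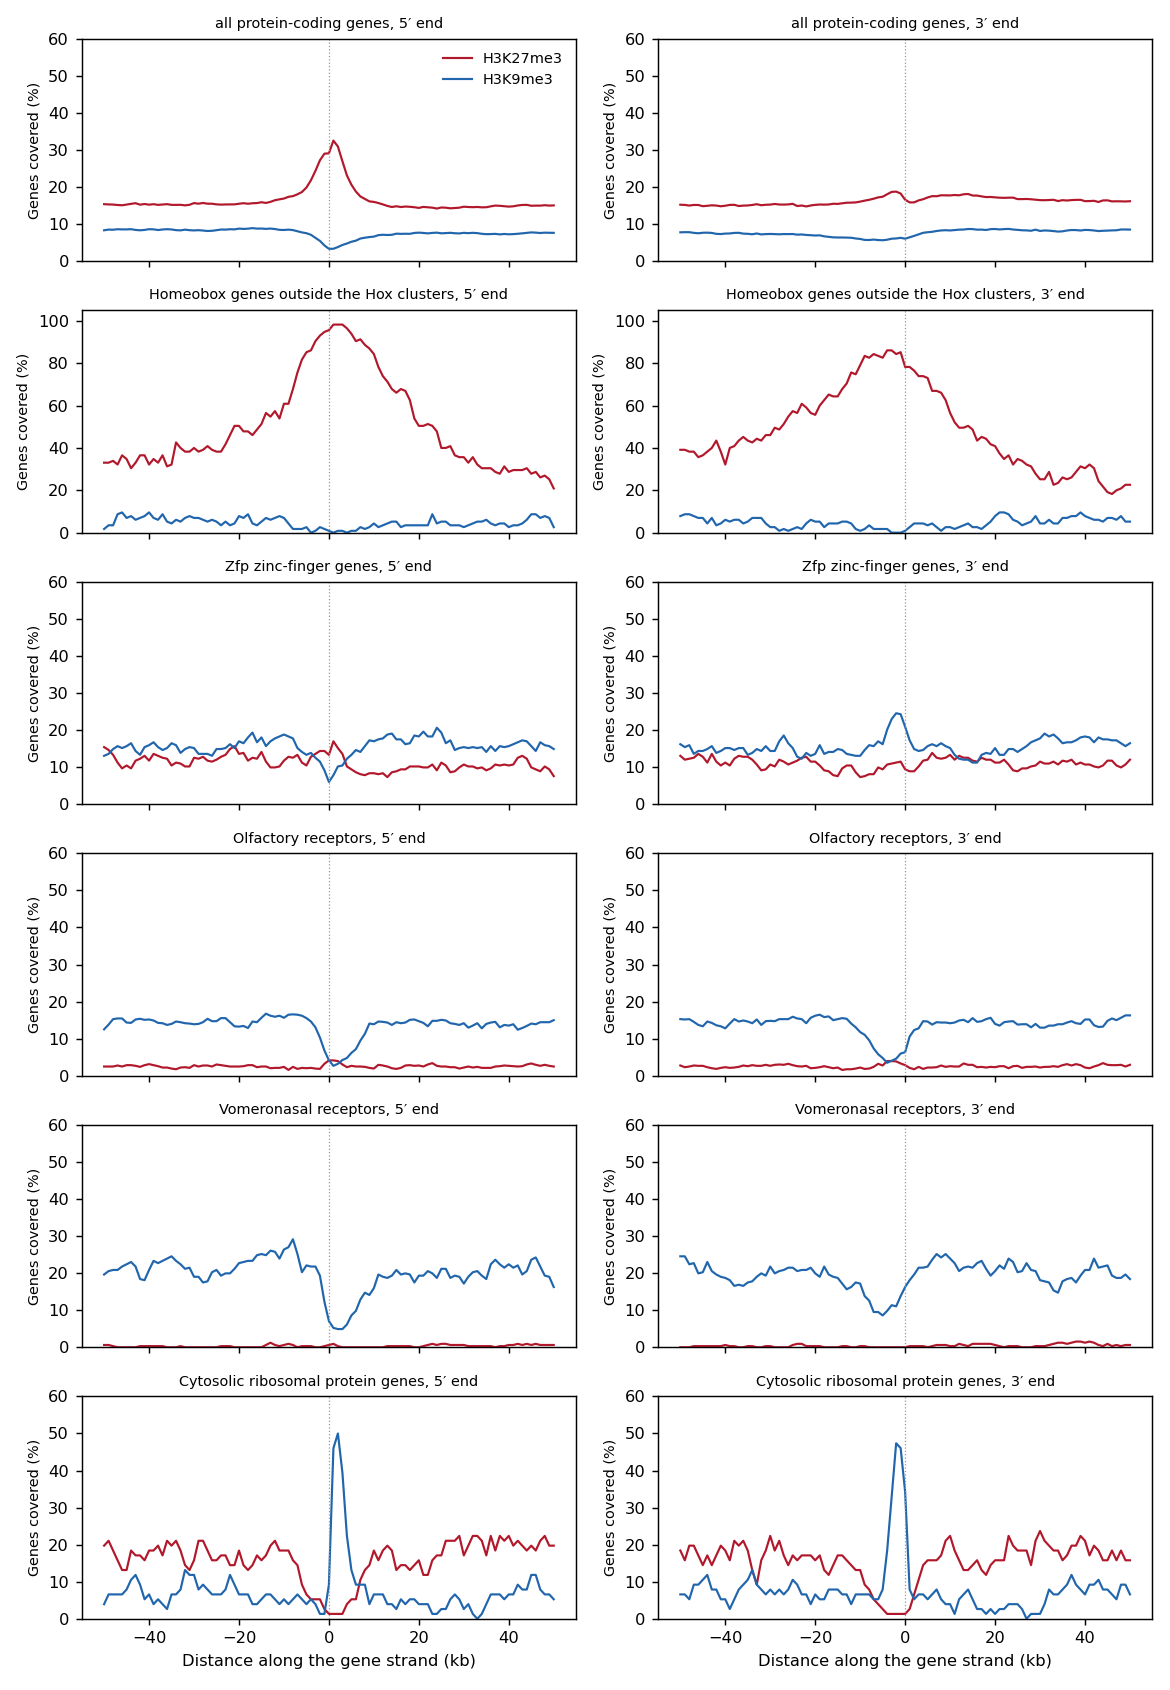
Share of genes (y axis, %) whose position at each distance from the 5′ end (left) or 3′ end (right) lay under consensus H3K27me3 (red) or H3K9me3 (blue), with distance along the gene strand in kb. The y axis ends at 60, except in the homeobox row, where it takes in 100. H3K9me3 dips at receptor genes, peaks before the 3′ end of Zfp genes at 24.5% and peaks inside ribosomal protein genes at 50.0%.

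Zfp zinc-finger genes, many of which encode KRAB proteins that recognise retrotransposons, divided between the marks. Of 383 promoters, 91 carried H3K27me3, 80 H3K9me3 and 8 both. H3K27me3 covered Zfp503 and Zfp703 in full in each library, and H3K9me3 covered Zfp992 in full and 98.1%, 97.4% and 98.1% of Zfp982. H3K9me3 lay towards the 3′ end, where the finger-coding exon is found: 24.5% of the genes were covered 2 kb before the 3′ end and 6.0% at the 5′ end. Chromosome 4 had 13 of 30 Zfp promoters under H3K9me3 and chromosome 7 had 28 of 92.

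The finger-coding sequence itself was read for the conserved linker between fingers, searched as ACNGGNGANAANCC on both strands. A coding exon of Zfp992 (chr4:146466610-146466849, plus strand, GRCm38.p6 genome) shows it, with the linkers in capitals and all 240 bases under H3K9me3.
Zfp992: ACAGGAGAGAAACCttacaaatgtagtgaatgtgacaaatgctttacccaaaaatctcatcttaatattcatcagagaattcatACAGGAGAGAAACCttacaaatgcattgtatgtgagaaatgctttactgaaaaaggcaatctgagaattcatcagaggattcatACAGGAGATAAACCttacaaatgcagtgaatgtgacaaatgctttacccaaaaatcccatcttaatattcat
Of 1649 bins of 200 bp with 2 or more linkers, 816 (49.5%) lay under H3K9me3 and 50 (3.03%) under H3K27me3, beside 7.61% and 9.48% of all bins. At least 1 match was found in 0.193% of H3K9me3 bins, 0.0518% of H3K27me3 bins and 0.0590% of all bins. Zfp genes with 5 or more linkers in their coding sequence had at least 50% of it under H3K9me3 in 71 of 174 (40.8%) and under H3K27me3 in 14 (8.05%). For genes with 1 to 4 linkers the counts were 22 and 18 of 110, and for genes with 0 linkers 12 and 23 of 99. Over all protein-coding genes the shares were 4.93% under H3K9me3 and 21.5% under H3K27me3. Linkers are near-identical between genes, and the part of multiply mapping reads was not tested.

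Cytosolic ribosomal protein genes, which are among the most active genes of the cell, had H3K9me3 in their gene bodies. At promoters the counts were 13 of 76 for H3K9me3 and 9 for H3K27me3. H3K9me3 covered at least 50% of the gene body in 42, 35 and 38 of the genes in WT1, WT2 and WT3 and in 40 (52.6%) by consensus, beside 2.95% of all protein-coding genes, while H3K27me3 did so in 0. The share of genes covered was 1.3% at 1 kb upstream, 46.1% at 1 kb downstream and 50.0% at 2 kb downstream. H3K4me3 was called at 88.2% and H3K27ac at 96.1% of their promoters. The H3K9me3 regions over them had a deposited log2 fold over input of 0.58 to 0.71 by library, below the 1.31 to 1.42 over all protein-coding genes. Coverage varied between libraries, with 84.7%, 38.7% and 62.9% of promoter plus gene body at Rpl23, a component of the large ribosomal subunit, and 89.7%, 91.7% and 89.7% at Rpl39l. These genes have many processed pseudogene copies, and the part of reads from those copies was not tested.

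Polycomb and pluripotency genes are read against the shares over all protein-coding promoters, 39.5% for H3K27me3 and 12.5% for H3K9me3. Of 30 Polycomb complex genes, 15 (50.0%) carried H3K27me3 and 1 (3.33%) H3K9me3, and Cbx8, a chromodomain subunit of Polycomb repressive complex 1, was covered by H3K27me3 in full in each library. Of 27 pluripotency genes, 7 (25.9%) carried H3K27me3 and 2 (7.41%) H3K9me3. Tbx3 was covered by H3K27me3 over 94.8 ± 1.82% of promoter plus gene body, and Dppa3, a maternal factor, by H3K9me3 over 33.1 ± 1.30%. Resf1, which acts with SETDB1 in retroelement silencing, was covered by H3K9me3 over 67.4%, 77.0% and 65.4% of promoter plus gene body.

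Promoters with both marks, 3.37% of all protein-coding promoters, were also counted among imprinted and germline genes. Over all protein-coding promoters 39.5% carried H3K27me3 and 12.5% H3K9me3. Each mark needs only 1 bp in the window, and over all promoters the count of both fell from 702 to 298 with 1000 bp on either side. Stricter counts of both are not given for these 2 families. Of 70 imprinted genes, which are expressed from 1 parental copy, 42 promoters carried H3K27me3, 23 H3K9me3 and 11 (15.7%) both. This set includes non-coding genes, among them Nespas, H19, Kcnq1ot1 and Airn, which had both marks. Over all 51229 annotated genes the shares were 28.4% with H3K27me3, 15.7% with H3K9me3 and 2.52% with both. Neighbours are not independent, since Sgce and Peg10, which also had both, start in the same H3K9me3 stretch. H3K27me3 covered Cdkn1c, a cell cycle inhibitor, Dlk1, Dio3, Klf14 and Magel2 over promoter and gene body in full by consensus. H3K9me3 covered Mcts2, Nnat, Nap1l5, Zrsr1 and Peg13 in full, with 0% under the H3K27me3 consensus, although H3K27me3 covered 29.6% of Nnat in WT1. In promoter plus gene body, H3K9me3 covered 100% of H19 and 29.5% of Igf2, and H3K27me3 43.0% of H19 and 84.7% of Igf2. In the gene body alone, both marks covered 100% of H19, and Igf2 had 100% under H3K27me3 and 7.58% under H3K9me3. Peg10 had 34.6% of promoter plus gene body under H3K27me3 and 82.9% under H3K9me3, and 12.8% and 76.4% of the gene body. Reads do not separate the parental copies, so both marks on 1 gene may lie on different copies or cells, which was not tested. Of 38 germline genes, 32 carried H3K27me3, 19 H3K9me3 and 16 (42.1%) both. Among them Tdrkh, a piRNA pathway gene, was covered by H3K27me3 over 95.7 ± 0.87% of promoter plus gene body, and Dpep3 by H3K9me3 over 76.9 ± 1.83%.

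Sequence under both marks was scarce. The consensus of H3K27me3 was 227.2 Mb (9.48% of the autosomes) and that of H3K9me3 182.3 Mb (7.61%), and 4.95 Mb lay under both, which is 2.18% of the H3K27me3 and 2.72% of the H3K9me3 consensus. Single libraries of the same mark shared 64.0% to 77.6% of their covered sequence for H3K27me3 and 78.4% to 80.9% for H3K9me3, and libraries of different marks 2.58% to 3.64%. H3K9me3 consensus lay within 5 kb of H3K27me3 for 10.2% of its bases, beside 20.5% of the autosomes. At 100 kb the shares were 52.4% and 63.5%. H3K27me3 consensus lay within 5 kb of H3K9me3 for 13.4% of its bases, beside 22.0%, and within 100 kb for 90.2%, beside 89.8%.

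The sequence under both was close to H3K27me3 sequence in composition, with 48.5% GC, 14.1 CpG per kb and 19.6% soft-masked bases, where H3K27me3 alone had 48.1%, 14.4 per kb and 17.7% and H3K9me3 alone 42.3%, 9.05 per kb and 51.2%. It formed 3195 stretches with a median of 1200 bp, of which the 906 of at least 2 kb held 57.0% of the bases. The widest was an intergenic stretch of 43.8 kb (chr17:27307201-27351000), and 1 H3K27me3 and 2 H3K9me3 libraries covered its whole length. Several other of the widest stretches lay close to it, such as 24.2 kb at chr17:27236401-27260600 and 15.8 kb at chr17:27290401-27306200. They belong to 1 locus and are not independent examples. A stretch of 22.2 kb lay at the imprinted gene Grb10 (chr11:12013601-12035800), a growth factor receptor adaptor. Bean1, a gene expressed in brain, had 11.2 kb under both in promoter plus gene body. For the 43.8 kb stretch and the Grb10 stretch, the bin of 200 bp with most CpG is printed (GRCm38.p6 genome, plus strand, chr17:27333801-27334000 and chr11:12026401-12026600). Only bins outside exons and without soft-masked bases were considered. These bins are not typical, since the 2 stretches held 13.5 and 12.9 CpG per kb over their whole length. The Bean1 promoter (RefSeq, chr8:104170263-104170512, plus strand) is printed too, and its last bases lie past the GENCODE start of Bean1 (104170442). Every CpG is in capitals.
Intergenic stretch: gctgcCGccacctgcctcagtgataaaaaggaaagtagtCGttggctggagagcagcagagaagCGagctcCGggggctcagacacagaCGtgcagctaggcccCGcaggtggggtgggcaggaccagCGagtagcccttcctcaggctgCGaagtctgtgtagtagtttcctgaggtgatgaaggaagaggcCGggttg
Grb10 stretch: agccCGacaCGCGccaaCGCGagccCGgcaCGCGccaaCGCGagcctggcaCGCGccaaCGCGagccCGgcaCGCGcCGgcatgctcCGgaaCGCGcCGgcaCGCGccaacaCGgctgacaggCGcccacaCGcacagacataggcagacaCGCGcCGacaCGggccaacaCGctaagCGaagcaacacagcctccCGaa
Bean1: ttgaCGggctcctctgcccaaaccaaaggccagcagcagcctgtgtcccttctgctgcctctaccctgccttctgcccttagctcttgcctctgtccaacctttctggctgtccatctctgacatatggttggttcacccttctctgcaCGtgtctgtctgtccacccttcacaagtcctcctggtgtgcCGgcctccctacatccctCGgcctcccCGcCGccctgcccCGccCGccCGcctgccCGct
They held 9, 34 and 10 CpG, and all their bases lay under both marks.

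A count test over windows of 1 Mb called most windows for one mark or the other. ChIP reads in called regions were summed per window and compared with edgeR's quasi-likelihood test across 2412 windows with Benjamini-Hochberg adjustment at 0.05, after trimmed mean of M-values (TMM) normalization of the library totals. H3K27me3 was higher in 991 windows (41.1%) with a median log2 fold of 1.47, and H3K9me3 in 1239 (51.4%) with a median log2 fold of H3K27me3 over H3K9me3 of -2.62, and 182 were not called. In 196 of the 1239 no H3K27me3 region was called in any library, so those windows passed the read minimum through H3K9me3 alone. Among the 2216 windows with calls of both marks, H3K27me3 was higher in 991 (44.7%) and H3K9me3 in 1043 (47.1%), with a median log2 fold of -2.13 in the latter. The libraries of the 2 marks did not overlap in 996 windows with H3K27me3 higher (41.3%) and in 1261 with H3K9me3 higher (52.3%). Windows with more H3K27me3 held a median of 9 protein-coding genes and 44.3% GC, and those with more H3K9me3 3 genes and 39.6% GC. On chromosome 11, 79 of 119 windows were higher in H3K27me3, and on chromosome 10, 85 of 128 were higher in H3K9me3.

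Of the 5 windows with the largest folds to H3K27me3, 2 held Hox genes. The window with the Hoxb cluster (chr11:96000001-97000000) held 32361, 36065 and 36343 H3K27me3 reads and 638, 278 and 544 H3K9me3 reads, a log2 fold of 6.20 ± 0.29 (SE, edgeR adjusted p = 2.54e-06). The window with most of the Hoxc cluster (chr15:102000001-103000000) held 32711, 33539 and 36144 against 793, 913 and 726 reads, a log2 fold of 5.41 ± 0.13 (edgeR adjusted p = 1.87e-07). A window on chromosome 4 (chr4:42000001-43000000), with multicopy Ccl21 and Fam205 genes, held 2982, 3151 and 3298 against 74, 0 and 80 reads, a log2 fold of 5.97 ± 1.11. A window without protein-coding genes (chr7:115000001-116000000) reached 5.40 ± 0.25, and one with Lgr6, Nav1 and Elf3 (chr1:135000001-136000000) 5.30 ± 0.11.

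The 5 windows with the largest folds to H3K9me3 had no called H3K27me3 region in any library, so no fold is given for them. Reads in H3K9me3 regions were 72678, 63670 and 62785 at chr12:20000001-21000000, where Asap2 is the only protein-coding gene, and 39771, 34795 and 33626 in the window before it. The window at the start of chromosome 9 (chr9:3000001-4000000) held 45344, 42022 and 40826. A cluster of Zfp genes with Zfp992 and Zfp981 (chr4:146000001-147000000) held 38597, 34104 and 32726, and a cluster of Mup genes, which encode major urinary proteins (chr4:60000001-61000000), 32389, 28517 and 26765. A read count of 0 means here that no region was called, since the lists count reads only inside regions. For H3K27me3, blacklisted sequence and multiply mapping reads were removed before calling, while their handling for H3K9me3 is not given. The part of this difference in the 5 windows, among them the start of chromosome 9, was not tested.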

How the data were processed

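Called regions of 3 H3K27me3 and 3 H3K9me3 WT libraries were read on chromosomes 1 to 19 (GRCm38). For H3K27me3 the authors aligned reads with Bowtie2, removed multiply mapping reads, those of low mapping quality, the Drosophila spike-in and blacklisted sequence, and called regions per library with epic2. How the H3K9me3 reads were processed is not given in the sources used here. The submitters' processing notes list Trim Galore 0.6.6, Bowtie2 2.4.4, SAMtools 1.15, deepTools 3.5.1, SICER 0.0.52 and MACS2 2.2.7.1. Each deposited epic2 region comes with its count of ChIP and input reads, its p-value and FDR, a log2 fold over input and a score. The authors' H3K4me3 peak lists, used only for where peaks lie, give a score, a fold enrichment ratio and −log10 p and q values.

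Consensus sequence was covered in at least 2 of 3 libraries. Genes were those of GENCODE M21, and any overlap of at least 1 bp with the window from 5000 bp before to 100 bp after the 5′ end put a promoter under a mark. Per-library values were compared with two-sided exact permutation tests over 20 assignments. Reads per 1 Mb window, with at least 10 reads in at least 3 libraries, were tested with edgeR 4.0.16 in R 4.3.3 (TMM, no covariates), and the scripts were tested on simulated data. Python 3.11.15, pandas 2.3.3 and SciPy 1.17.1 did the rest. Alternatives changed the consensus, FDR, number of regions, width, promoter window, window size, normalization and tool, and left out each library. The members and lists were chosen with earlier results of these data known. Named genes were the 2 members of each family most covered by each mark, the 8 genes with the longest stretch of each mark and the 8 with most bases under both, the 5 windows with the largest fold each way, and marker genes, and the text gives part of these. Other imprinted genes were named after their values were seen. Of the genes listed for their longest stretches or for both marks, a RefSeq promoter was matched for 1 of 8, 7 of 8 and 1 of 8. Libraries of cells lacking IκBα were not used here.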

Additional observations from a re-analysis of the deposited data

How the results depend on the processing

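The order of the marks in covered sequence, wide regions, composition, promoters and gene classes was the same under every alternative run. None of the alternatives changed how reads were mapped. The difference in regions per library (H3K27me3 minus H3K9me3, -203.3) turned to 1903 with regions of at least 1000 bp, was set to equal by the alternative with the same number of regions, and ran from -2044 to 1514 with 1 library left out. The coverage difference of chromosome 1 (0.186 points) turned to -0.147 at an FDR under 0.01 and ran from -0.0855 (without H3K27me3 WT3, and -0.0815 without WT2) to 0.726 with 1 library left out, and that of chromosome 14 ran from -0.727 to 0.0115 (without WT1). Chromosomes higher in H3K27me3 (9) ran from 9 to 15 with 1 library left out, and those higher in H3K9me3 (3) from 3 to 4, with 4 at an FDR under 0.01 and 1 with equal numbers of top-ranked regions. Sequence under both (4.95 Mb) was 1.80 Mb in 3 of 3 libraries, 3.91 Mb with the same number of regions and 3.44 to 3.97 Mb with 1 library left out. Its share of H3K27me3 sequence (2.18%) was 1.24%, 1.81% and 1.58% to 2.12% in that order and 2.10% at an FDR under 0.01, and of H3K9me3 sequence (2.72%) 1.32%, 2.27% and 1.89% to 2.42%. Promoters with 1000 bp on either side gave 1275 under H3K9me3, 298 under both and 977 under H3K9me3 alone. Requiring at least 50% of the window gave 5403 under H3K27me3, 1023, 79 and 944, and 3 of 3 libraries gave 438 under both. Families with more H3K9me3 (8) were 4 with 1000 bp on either side and 5 to 10 with 1 library left out. Alternatives for the active marks were chosen after seeing the data: H3K4me3 at promoters with H3K27me3 alone (65.4%) was 66.9% in 3 of 3 libraries, 67.4% with 1000 bp on either side, 69.6% with 50% of the window and 65.3% to 66.6% with 1 library left out, and with H3K9me3 alone (34.9%) 29.2%, 31.0%, 32.2% with the same number of regions and 33.5% to 35.2%. Windows of 500 kb gave 1713 higher in H3K27me3 and 2492 in H3K9me3, and 1 Mb windows with 1 library left out 951 to 971 and 984 to 1255. The causes were not tested.

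Same-numbered libraries of the 2 marks did not deviate together (correlations of -0.024, 0.0057 and -0.031). This cannot show whether they came from the same clone, because a clone need not shift both marks. With the replicate number as a block, edgeR called 963 and 1211 windows, and the exact sign-flip test of covered sequence (a difference of 51.9 Mb) gave p = 0.25, the smallest that 3 pairs allow.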
